A study of Homo sapiens with 2 samples.

Results

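The fatty acid and sphingolipid desaturases were followed as a family of 8 genes: FADS1, FADS2, FADS3, FADS6, SCD, SCD5, DEGS1 and DEGS2. They were taken by symbol from a table of 58735 genes, and the family was selected on the log2 ratio of FADS2 and SCD between these same libraries, so those ratios are a description. Human NCI-H460 cells, a line of large cell lung carcinoma, were compared 24 h after transfection between 1 library from cells given an siRNA against CYP4F11 (siCYP4F11) and 1 library from cells that received none against that gene (siControl, genotype labelled WT). The labels give both libraries 1 batch and the sample titles name NCI-H460, although the design text names NCI-H469. The counts of the siCYP4F11 library are headed A2KO_4F11, although its title names an siRNA and CYP4F11 was still counted in it. With 1 library per group there was no replicate error and no test, so each difference is one between 2 libraries, and its interval covers counting error only. A culture was measured in bulk, so fewer cells with a transcript and less of it per cell cannot be told apart.

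Desaturases are membrane enzymes of the endoplasmic reticulum that place a double bond in an acyl or sphingoid chain, using electrons passed on by cytochrome b5 and its reductases. SCD turns saturated palmitate and stearate into palmitoleate and oleate, the monounsaturated chains of phospholipids and triglycerides. FADS2 takes the first step from linoleic and alpha-linolenic acid towards arachidonic and eicosapentaenoic acid, FADS1 takes a later step, and an elongation lies between them. DEGS1 closes de novo ceramide synthesis by desaturating dihydroceramide. SCD, FADS1 and FADS2 are textbook targets of the transcription factor SREBP-1.

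FADS2 and SCD mRNA were lower in the siCYP4F11 library, while FADS1, which overlaps FADS2 in the genome, differed little. FADS2 stood at 39.4% of its siControl level (95% counting interval 36.1% to 42.9%) and SCD at 68.4% (66.7% to 70.1%). FADS1 stood at 116% (112% to 121%), and DEGS1 at 98.4% (90.8% to 107%). FADS6 and DEGS2 were close to absent from both libraries.

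The libraries held 13002179 counts for siCYP4F11 and 16207785 for siControl. CYP4F11, the target of the siRNA and a fatty acid omega-hydroxylase, had 972 counts in siCYP4F11 and 3180 in siControl, or 74.5 against 197 CPM (counts per 1000000 counts of the library, with library sizes normalised by the TMM method). Of 5 lung carcinoma epithelial markers, the keratins KRT8, KRT18 and KRT19 were abundant, and all 3 were lower in siCYP4F11, with a median log2 ratio of siCYP4F11 over siControl of -0.29. KRT8 was at -0.30 (95% counting interval -0.33 to -0.26), KRT19 at -0.29 (-0.32 to -0.26) and KRT18 at -0.08 (-0.13 to -0.03), and 10.1% and 14.3% of the 50-base words of KRT8 and KRT18 also occur in other genes. EPCAM had 8 counts in siCYP4F11 and 6 in siControl, and CDH1 had 0 and 1, so these epithelial surface markers were at or near 0. The 5 leukocyte markers summed to 2.60 CPM in siCYP4F11 and 1.36 CPM in siControl with PTPRC at 0 in both. CD14, the leukocyte marker above 1 CPM, had 33 counts in siCYP4F11 and 20 in siControl, a log2 ratio of 1.01 (0.18 to 1.91). The 6 fibroblast and endothelial markers summed to 5.29 CPM in siCYP4F11 and 3.96 CPM in siControl with PECAM1, CDH5 and VWF at 0, and DCN, a matrix proteoglycan of fibroblasts, had 36 and 26 counts at 0.77 (0.01 to 1.56). The part of these markers in the desaturase results was not tested.

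The sequence just before an annotated start is shown for each of FADS2, SCD, FADS3, FADS1 and SCD5. This sets the FADS cluster and the pair of stearoyl-CoA desaturases side by side. Each is 250 bases from RefSeq on GRCh38.p14, read 5′ to 3′ on the strand of the gene, with every CCAAT box on either strand (CCAAT or ATTGG, the site bound by NF-Y, a partner of SREBP) in capitals.
FADS2, chr11:61816154-61816403, plus strand: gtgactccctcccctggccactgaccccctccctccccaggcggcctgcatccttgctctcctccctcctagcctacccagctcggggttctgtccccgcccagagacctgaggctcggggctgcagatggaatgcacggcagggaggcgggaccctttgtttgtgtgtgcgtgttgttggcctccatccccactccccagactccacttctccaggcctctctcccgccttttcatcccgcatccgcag
SCD, chr10:100346983-100347232, plus strand: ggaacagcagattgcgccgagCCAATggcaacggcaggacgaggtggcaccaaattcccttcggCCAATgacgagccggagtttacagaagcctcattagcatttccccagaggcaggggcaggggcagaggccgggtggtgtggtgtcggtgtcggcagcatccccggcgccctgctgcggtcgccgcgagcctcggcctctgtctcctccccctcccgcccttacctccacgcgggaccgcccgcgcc
FADS3, chr11:61891546-61891795, minus strand: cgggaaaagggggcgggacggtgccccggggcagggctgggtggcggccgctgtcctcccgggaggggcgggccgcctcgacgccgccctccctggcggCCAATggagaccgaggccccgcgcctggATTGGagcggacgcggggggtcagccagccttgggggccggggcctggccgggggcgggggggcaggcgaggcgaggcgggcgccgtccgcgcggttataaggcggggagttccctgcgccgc
FADS1, chr11:61817004-61817253, minus strand: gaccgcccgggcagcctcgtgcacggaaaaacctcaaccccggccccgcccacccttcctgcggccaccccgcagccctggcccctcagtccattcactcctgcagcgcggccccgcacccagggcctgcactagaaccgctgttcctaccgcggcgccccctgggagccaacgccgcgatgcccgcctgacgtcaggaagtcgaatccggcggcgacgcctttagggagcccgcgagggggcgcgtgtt
SCD5, chr4:82798797-82799046, minus strand: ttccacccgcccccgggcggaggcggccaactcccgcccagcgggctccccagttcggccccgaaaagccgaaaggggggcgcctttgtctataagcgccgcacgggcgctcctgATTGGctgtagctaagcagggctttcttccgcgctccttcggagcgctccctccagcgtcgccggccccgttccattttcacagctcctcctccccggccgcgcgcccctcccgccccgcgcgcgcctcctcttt

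SCD and FADS3 had 2 CCAAT boxes each in these windows, SCD5 had 1, and FADS2 and FADS1 had 0. Over all 35116 windows of the RefSeq table, 32.0% held CCAAT. The sterol regulatory element TCACNCCAC, searched on both strands, was in 0.883% of all windows and in none of the 9 windows found for 7 of the desaturases. The E-box CACGTG, in 6.34% of windows, was in none of the 9 either. The Sp1 box GGGCGG, in 42.6% of windows, occurred 2 times in SCD and in FADS1, 4 times in FADS3 and in SCD5, and 1 time in the FADS2 window shown. A match is a description of letters and not a bound site. FADS2 has 15 annotated transcripts in GENCODE 29, and some start well past the window shown, at 61827392, 61827761, 61828179 and 61828280. No window before those starts was available, so the sequence there was not searched. The FADS2 matches above cover starts upstream of them only. The deposited counts are per gene and do not tell which start was used.

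The front-end desaturases of the polyunsaturated pathway overlap on chromosome 11, and FADS2 alone of the pair passed a size rule, a difference past 1.5-fold or 2-fold with a counting interval that excludes 0. FADS2 (ENSG00000134824, chr11:61792980-61867354 on GRCh38, plus strand) had 693 counts in siCYP4F11 and 2177 in siControl, which is 53.1 CPM (49.2 to 57.2) against 135 CPM (129 to 141). Its log2 ratio of siCYP4F11 over siControl was -1.34 (95% counting interval -1.47 to -1.22), or 2.54-fold lower. The intervals of the 2 levels do not overlap, which describes a value that the family was selected on. FADS1 (ENSG00000149485, chr11:61799625-61829318, minus strand) had 5060 counts in siCYP4F11 and 5382 in siControl, or 388 CPM (377 to 398) against 333 CPM (325 to 342). Its log2 ratio was 0.22 (0.16 to 0.27), an interval above 0, but it passed no size rule.

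FADS3 (ENSG00000221968, chr11:61873519-61892051, minus strand) encodes a desaturase that acts on the sphingoid base of ceramides. It had 111 counts in siCYP4F11 and 199 in siControl, or 8.50 CPM (6.99 to 10.2) against 12.3 CPM (10.7 to 14.2), a log2 ratio of -0.53 (-0.88 to -0.19). The CPM intervals do not overlap, although the counts were small. FADS6 (ENSG00000172782, chr17:74877299-74893781, minus strand), a relative with no role stated here, had 0 counts in siCYP4F11 and 1 in siControl. Its 0 counts allow up to 0.230 CPM by a floor of 3 counts, so no ratio is given.

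**Figure D1:**
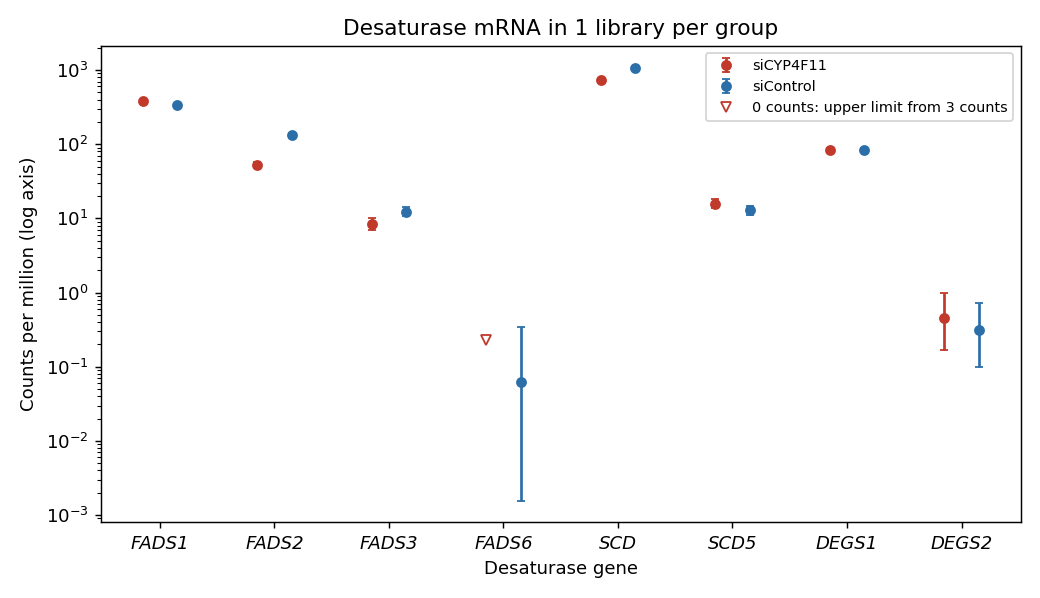
Level of each desaturase in CPM, on a log axis, in the siCYP4F11 library (red, left of each pair) and the siControl library (blue), with exact Poisson 95% intervals that cover counting error only. FADS2 and SCD are lower in siCYP4F11, FADS1 and DEGS1 differ little, and FADS6 and DEGS2 lie under 1 CPM; the open triangle is the limit that 0 counts allow by a floor of 3 counts.

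The stearoyl-CoA desaturases also differed from each other. SCD (ENSG00000099194, chr10:100347124-100364834, plus strand) had 9493 counts in siCYP4F11 and 17162 in siControl, or 727 CPM (713 to 742) against 1063 CPM (1047 to 1079). Its log2 ratio was -0.55 (-0.58 to -0.51), just short of a 1.5-fold difference. By CPM it was gene number 167 of the siCYP4F11 library and number 97 of the siControl library, so it was among the most abundant transcripts of both. SCD5 (ENSG00000145284, chr4:82629539-82798857, minus strand), the other human stearoyl-CoA desaturase, had 206 counts in siCYP4F11 and 208 in siControl, or 15.8 CPM (13.7 to 18.1) against 12.9 CPM (11.2 to 14.8). Its log2 ratio was 0.29, with an interval of 0.007 to 0.58 that barely leaves 0 and includes it after a correction for gene length (-0.004 to 0.57).

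Of the dihydroceramide desaturases, DEGS1 showed no difference beyond counting error, and DEGS2 had too few counts to tell. DEGS1 (ENSG00000143753, chr1:224175756-224193441, plus strand) had 1089 counts in siCYP4F11 and 1368 in siControl, or 83.4 CPM (78.5 to 88.5) against 84.7 CPM (80.3 to 89.4). Its log2 ratio was -0.02 (-0.14 to 0.09). That interval leaves out the log2 ratios of FADS3, SCD and FADS2 below it and of FADS1 and SCD5 above it. DEGS2 (ENSG00000168350, chr14:100143957-100160163, minus strand), which also hydroxylates dihydroceramide to phytoceramide, had 6 counts in siCYP4F11 and 5 in siControl. Its log2 ratio of 0.55 had an interval of -1.41 to 2.62, so its direction is not settled at this depth.

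FADS2 was the only desaturase to pass either size rule, which asks for a log2 ratio past 2-fold or 1.5-fold and a counting interval that excludes 0. In all, 13942 genes averaged 1 CPM or more over both libraries. Of these, 175 were lower by the 2-fold rule (1.26%) and 98 higher (0.703%), so 1.96% passed in either direction. By the 1.5-fold rule 479 were lower (3.44%) and 284 higher (2.04%), or 5.47% in either direction. The desaturases were partly chosen for these values, so nothing is read from their count against that background. Among the 6 desaturases above 1 CPM, 1 was called lower and 0 were called higher by both rules.

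The spread between the 2 libraries at each level gives a scale for these ratios. Of 3655 genes whose mean CPM lay within 2-fold of that of FADS2, 2 had a lower log2 ratio, and the 5th to 95th percentiles ran from -0.32 to 0.31. Of 274 genes of like level to SCD, 0 had a lower ratio, and the percentiles were -0.26 and 0.24. Since the family was selected on these 2 ratios, their places are a description and support nothing further. FADS1 lay inside the bulk, with 91.4% of 810 genes lower and a 95th percentile of 0.27. FADS3 was inside it too, with 5.74% of 3312 genes lower, as were SCD5, with 86.7% of 3794 lower, and DEGS1, with 43.8% of 3947 lower. The intervals of FADS1 and FADS3 exclude 0 for counting. Both ratios lay within the 5th to 95th percentiles but towards an end, with FADS3 at -0.53 close to its 5th percentile of -0.56.

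**Figure D2:**
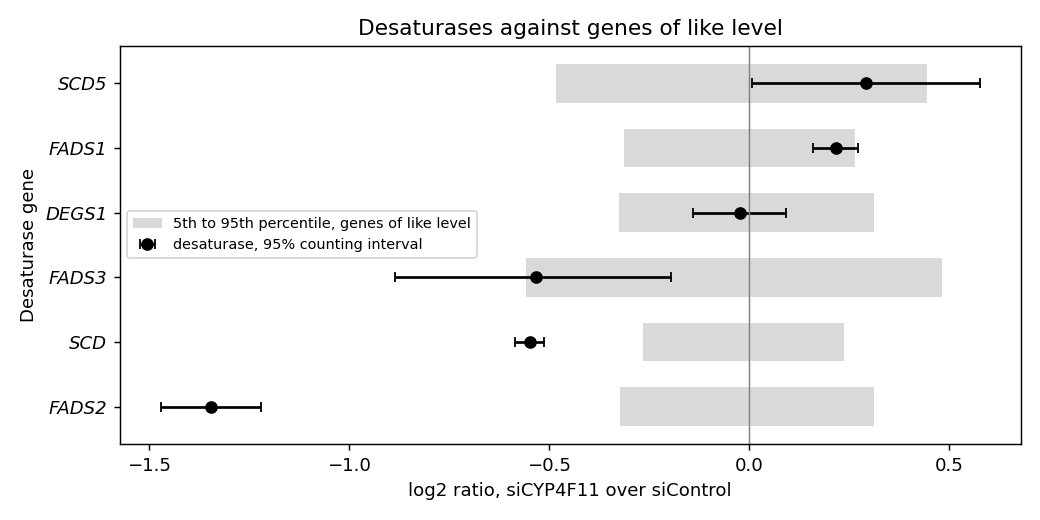
Log2 ratio of siCYP4F11 over siControl for the 6 desaturases above 1 CPM (points, with 95% counting intervals) and the 5th to 95th percentile of genes whose mean CPM lies within 2-fold (grey bars). FADS2 at -1.34 and SCD at -0.55 lie outside their grey bars, and the points of the other desaturases lie inside.

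Shares within a library do not depend on how the libraries are scaled, and they are given for the FADS cluster. FADS2 gave 11.8% (11.002% to 12.7%, exact Clopper-Pearson) of the 5864 FADS1, FADS2 and FADS3 counts in siCYP4F11, against 28.1% (27.1% to 29.1%) of 7758 in siControl. FADS1 gave 86.3% (85.4% to 87.2%) in siCYP4F11 and 69.4% (68.3% to 70.4%) in siControl. For each FADS1 count there were 0.137 FADS2 counts in siCYP4F11 and 0.404 in siControl. The 2 genes added together had 5753 counts in siCYP4F11 and 7559 in siControl, a log2 ratio of -0.09 (-0.14 to -0.04).

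**Figure D3:**
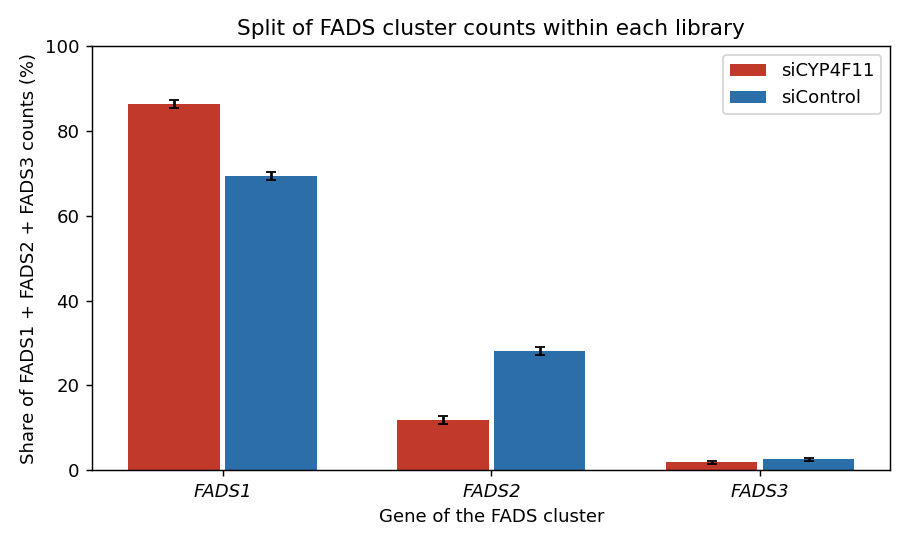
Share of the summed FADS1, FADS2 and FADS3 counts that each gene took in the siCYP4F11 library (red, left) and the siControl library (blue), with exact 95% binomial intervals. FADS2 takes 11.8% in siCYP4F11 and 28.1% in siControl, and FADS1 takes 86.3% and 69.4%.

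The log2 ratios of 2 desaturases were also set against each other over the 15 pairs of the 6 genes above 1 CPM, with exact conditional intervals for counting error. FADS2 was lower than FADS1 by a difference of log2 ratios of -1.56 (-1.70 to -1.43). It was also lower than SCD, at -0.80 (-0.93 to -0.67), and than DEGS1, at -1.32 (-1.49 to -1.15). The difference between SCD and SCD5 was -0.84 (-1.13 to -0.55). FADS3 and SCD had nearly equal ratios, with a difference of 0.01 (-0.34 to 0.36), as had FADS1 and SCD5, at -0.08 (-0.37 to 0.22). In the other 13 of 15 pairs the interval excluded 0. Most of these pairs hold FADS2 or SCD, on whose ratios the family was selected, so this count is a description.

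Per length, SCD was the most abundant desaturase in both libraries. In TPM, a count per base of gene length scaled so that all genes sum to 1000000 and computed here from the deposited lengths, SCD was at 431 in siCYP4F11 and 632 in siControl. FADS1 was at 120 TPM in siCYP4F11 and 104 TPM in siControl, and DEGS1 at 105 and 107 TPM. The order of FADS1 and DEGS1 depended on the length used. With the longest transcript as length FADS1 was at 207 TPM in siCYP4F11 and 178 TPM in siControl, above DEGS1 at 95.8 and 97.6 TPM in both libraries. FADS2 followed with 15.3 TPM in siCYP4F11 and 39.0 TPM in siControl, then SCD5 with 11.7 and 9.57 TPM, and FADS3 with 4.30 and 6.25 TPM. DEGS2 had 0.327 TPM in siCYP4F11 and 0.221 TPM in siControl, and FADS6 was at 0 and 0.0690 TPM.

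SCD held most of the difference in the total. Summed over the 8 genes, desaturase mRNA was 1276 CPM in siCYP4F11 and 1642 CPM in siControl, which is 366 CPM lower. SCD alone was lower by 336 CPM, and the other 7 genes together had 549 CPM in siCYP4F11 and 579 CPM in siControl. FADS2 was lower by 81.8 CPM and FADS1 higher by 54.2 CPM. SCD took 57.0% (56.2% to 57.7%) of all desaturase counts in siCYP4F11 and 64.8% (64.2% to 65.3%) in siControl.

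The gene models of FADS1 and FADS2 overlap, which bears on how their reads were assigned. The FADS2 model encloses all of FADS1 on the opposite strand, through a single transcript that starts at 61792980. The next FADS2 transcript starts at 61816256, within the FADS1 span. In all, 490 exon bases are common to both models, 4.44% of the FADS2 exons and 4.79% of the FADS1 exons. FADS2 also shares 49 exon bases with FEN1, a flap endonuclease of DNA replication on the same strand, 0.444% of its exons. Only 0.0983% of the 50-base words of FADS2 transcripts occur in transcripts of other genes, with 1.87% for FADS1 and 4.42% for SCD, mainly in AC126365.1. The libraries were prepared strand-specifically, but the strand setting of the counting is not given in the sources used here, so reads in the 490 bases could be assigned either way or dropped. Their part in the FADS2 result was not tested.

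**Figure D4:**
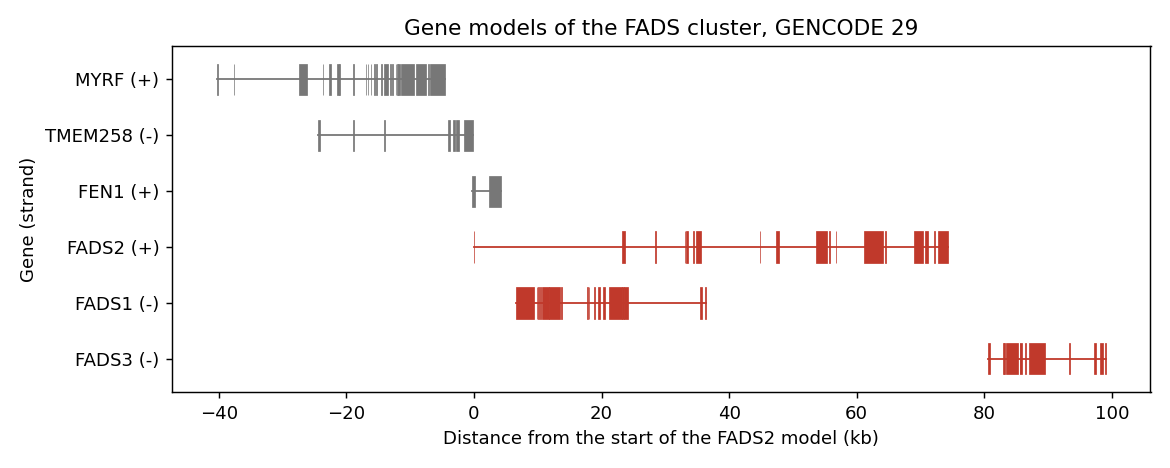
Gene models around the FADS cluster from GENCODE 29, as distance in kb from the start of the FADS2 model, with exons of all transcripts as blocks and introns as lines; the desaturases are red. FADS1 lies wholly within the span of the FADS2 model on the opposite strand, with 490 exon bases common to both. A single FADS2 transcript, starting at 61792980, gives the model this span. FADS3 lies beyond the end of FADS2.

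Genes around the cluster were mixed. Of 8 neighbours, 2 were lower and 0 higher by the 1.5-fold rule, where 3.44% and 2.04% of all genes were, and the median log2 ratio was -0.02, against -0.005 over all 13942 genes. The 2 were DAGLA, a diacylglycerol lipase, with 10 counts in siCYP4F11 and 32 in siControl at -1.32 (-2.56 to -0.31), and RAB3IL1, an exchange factor for Rab proteins, with 66 and 128 counts at -0.64 (-1.10 to -0.21). RAB3IL1 was at -0.51 after the GC correction described at the end, under the 1.5-fold line. FEN1 and TMEM258 were at 0.21 (0.08 to 0.33) and 0.16 (0.01 to 0.32). They were named after their values were seen because they lie next to the start of the FADS2 model. A single transcript sets that start at 61792980, and the next FADS2 transcript starts at 61816256.

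Among genes of like level, those closest to FADS2 in log2 ratio were CYP4F11 itself, MGAT5 and NELFCD, out of 3610 protein-coding genes within 2-fold of its mean CPM. CYP4F11 was at -1.40 (-1.51 to -1.30), so the FADS2 ratio lay 0.059 from that of the siRNA target. MGAT5, which branches N-glycans, had 323 counts in siCYP4F11 and 1269 in siControl at -1.67 (-1.85 to -1.49). NELFCD, a subunit of the negative elongation factor, had 647 and 1573 counts at -0.97 (-1.11 to -0.84). Likeness over 2 libraries is only closeness of 1 ratio.

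All 7 electron donors were above 1 CPM with log2 ratios from 0.003 to 0.38 and a median of 0.14. By the 1.5-fold rule 0 of them passed, against 5.47% of all genes in either direction. CYB5A was at 0.05 (-0.14 to 0.24), and at -0.05 after the GC correction. CYB5B, the cytochrome b5 of the outer mitochondrial membrane, had 1421 counts in siCYP4F11 and 1352 in siControl at 0.38 (0.27 to 0.49), and 33.9% of its 50-base words occur in other genes. CYB5R4, a cytochrome b5 reductase, had 355 and 374 counts at 0.23 (0.02 to 0.44).

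Of the fatty acid elongases, 9 of 11 measured members were above 0, with a median of 0.20. Over all genes kept, 49.2% were above 0. The elongases above 0 include ELOVL6 at 0.05 (-0.12 to 0.21) and HACD3 at 0.07 (-0.01 to 0.16), with intervals that include 0. After the GC correction the elongase median was 0.23, while ELOVL6 was at -0.03. By the 1.5-fold rule 0 elongases passed, against 5.47% of all genes in either direction. ELOVL7 was at 0.53 (-0.22 to 1.30) on 34 counts in siCYP4F11 and 29 in siControl, so its direction is not settled. ELOVL4 was at 0.40 (0.18 to 0.62). ELOVL5, which lengthens the FADS2 product before FADS1 acts and was named after its value was seen, had 1827 and 1818 counts at 0.31 (0.22 to 0.41). Neither ELOVL5 nor FADS1 passed the 1.5-fold rule.

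**Figure D5:**
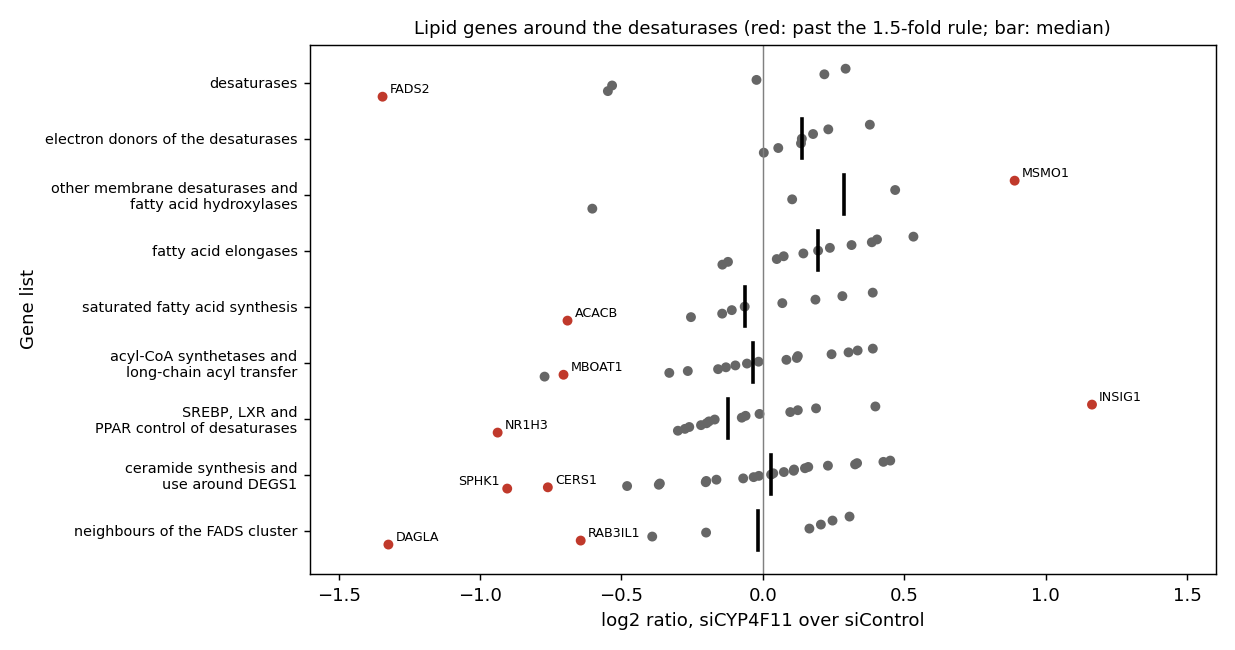
Log2 ratio of siCYP4F11 over siControl for each gene above 1 CPM in the desaturase family and in 8 lists of related genes, with genes past the 1.5-fold rule in red and named, and the median of each other list as a black bar. FADS2 lies furthest left among the desaturases at -1.34, INSIG1 lies furthest right at 1.16, and 8 other genes are past the rule.

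Genes listed under saturated fatty acid synthesis were mixed. Of these 9 genes, 1 was lower and 0 were higher by the 1.5-fold rule (3.44% and 2.04% of all genes), and the median was -0.06. ACACB, the mitochondrial acetyl-CoA carboxylase, had 117 counts in siCYP4F11 and 234 in siControl at -0.69 (-1.03 to -0.37). FASN, which makes palmitate and was named after its value was seen, was at -0.25 (-0.31 to -0.20), a smaller difference than that of SCD. Among 16 measured acyl-CoA synthetases and acyltransferases, 1 was lower and 0 higher by the same rule, with a median of -0.04. This was MBOAT1, a lysophospholipid acyltransferase, with 32 and 65 counts at -0.70 (-1.37 to -0.08).

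Regulators known to act on desaturase genes gave 1 call in each direction among 16 by the 1.5-fold rule, which 5.47% of all genes passed in either direction, with a median of -0.12. INSIG1, the sterol-responsive protein that retains SREBP precursors in the endoplasmic reticulum, had 446 counts in siCYP4F11 and 246 in siControl at 1.16 (0.94 to 1.40). NR1H3, which encodes the oxysterol receptor LXR-alpha, an activator of SCD and SREBF1, had 47 and 112 counts at -0.94 (-1.47 to -0.44). SREBF1, which encodes SREBP-1 and was named after its value was seen, was at 0.12 (0.05 to 0.19). Any link between these regulators and the levels of FADS2 and SCD was not tested.

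Among the other membrane desaturases and hydroxylases of similar chemistry, 1 of 4 measured was higher by the 1.5-fold rule (2.04% of all genes) and 0 were lower (3.44%), with a median of 0.29. MSMO1, a sterol methyl oxidase of cholesterol synthesis, had 273 counts in siCYP4F11 and 182 in siControl at 0.89 (0.62 to 1.17). Around DEGS1, 2 of 23 measured genes of ceramide synthesis and use were lower and 0 higher by that rule, where 3.44% and 2.04% of all genes were, with a median of 0.03. These were SPHK1, a sphingosine kinase, with 33 and 77 counts at -0.90 (-1.55 to -0.31), and the ceramide synthase CERS1, with 26 and 55 counts at -0.76 (-1.51 to -0.08). Of the words of CERS1, 65.8% occur in another gene, mainly GDF1, so its value is uncertain.

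GC content moved with the log2 ratios. Across 9590 genes that averaged 10 CPM or more, which are not independent replicates, the Spearman correlation with the GC content of the longest transcript was -0.42. That GC content was 58.6% for FADS2, 56.1% for FADS3, 50.1% for FADS1, 49.1% for SCD5, 47.1% for SCD and 43.6% for DEGS1. After a lowess correction for it, FADS2 was at -1.24 (-1.36 to -1.11), SCD at -0.55, FADS3 at -0.44 and FADS1 at 0.25, so each of them kept its sign. Some smaller values did not. The median of saturated fatty acid synthesis went from -0.06 to 0.05, and that of acyl-CoA synthetases and acyltransferases from -0.04 to 0.006. The median of the cluster neighbours went from -0.02 to 0.02, and KRT18 from -0.08 to 0.005. FASN kept its sign but went from -0.25 to -0.11.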

How the data were processed

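The authors deposited 1 table of raw, whole-number read counts per gene for both libraries, with gene lengths in bases. Tools listed in the submitters' processing notes are HISAT2 2.2.1, fastp, edgeR 4.0.16 and featureCounts 2.0.6, with the build GRCh38. How each was set, and whether counting used strand, is not given in the sources used here. For all 8 desaturases the deposited length equals the union of GENCODE 29 exons. Libraries were scaled by TMM in edgeR 4.0.16 (R 4.3.3). Log2 ratios of siCYP4F11 over siControl used 0.5 added to each count, with exact Clopper-Pearson 95% intervals of the siCYP4F11 share of both counts. With 1 library per group, no test was run and no p-value computed. Genes averaging 1 CPM or more were kept. The ratio and its size rules were tested on simulated counts with Poisson error alone. That test covers counting error and not variation between cultures.

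Named were the 8 desaturases, CYP4F11, up to 5 members of each list past the 1.5-fold rule or else the 2 with the largest ratios, and the 3 genes nearest FADS2. The members and lists were chosen with earlier results of these data known. Alternatives were other scalings (total counts, DESeq2 1.42.0 size factors, upper quartile), 2 added to each count, GC and length corrections, other filters, protein-coding genes alone, list means and the longest transcript as length. Promoter windows were found for 7 of 8 desaturases, all but FADS6. Those of FADS2 lay before starts upstream of 61827392 only. Calculations used scipy 1.17.1, statsmodels 0.14.6, pandas 2.3.3 and numpy 2.4.6 under Python 3.11.15, and plots matplotlib 3.10.9.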

Additional observations from a re-analysis of the deposited data

How the results depend on the processing

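Of 188 recomputed values, 168 stayed within their interval or within 1.5 times the count, 20 moved and 0 changed the sign of a called value. Some of these values could hardly move. The interval of DEGS2 was -1.41 to 2.62, and that of FADS6 had no lower limit. For the desaturase median it spanned the whole range of the measured members, -1.34 to 0.29. List medians that changed sign under the GC correction counted as staying, since sign was scored for called genes only. FADS2 lay between -1.34 and -1.33 and SCD between -0.55 and -0.54 under other scalings and with 2 added to each count. Adding the counts of overlapping genes, chosen after the data were seen, gave -0.088 for FADS1 with FADS2 and -0.61 for FADS2 with FEN1, since the partner's counts enter the ratio. Counts of genes followed from testing more or fewer genes. By the 2-fold rule they were 345 higher and 476 lower with no filter, 5 and 19 at a mean CPM of at least 5, and 50 and 103 among protein-coding genes alone. By the 1.5-fold rule they were 531 and 780 with no filter and 109 and 190 at a mean CPM of at least 5. With the longest transcript as length, TPM in siCYP4F11 and siControl was 207 and 178 for FADS1, 25.3 and 64.3 for FADS2, 327 and 480 for SCD, and 95.8 and 97.6 for DEGS1, which follows from the other lengths. Depth limits FADS3, SCD5, DEGS2 and FADS6 most. No paired analysis was possible because each group had 1 library.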
